A study of Mus musculus with 4 samples.

Results

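The clustered histone genes are the gene family that supplies chromatin with its bulk histones while DNA is copied. They were taken as the 68 rows of the deposited expression table whose symbol begins with Hist1h, Hist2h, Hist3h or Hist4h. They were set beside 6 replacement histone genes, H2afx, H2afz, H2afy, H3f3a, H3f3b and H1f0, which gives 74 of the 24346 gene symbols in the table. The table holds RNA levels of heart endothelial cells of C57BL/6 mice labelled young, purified by flow cytometry and labelled as fresh from tissue. The 2 libraries labelled ECp53KO, taken from the wording of the series title to lack p53 in endothelium, are ECp53KO_170 and ECp53KO_172. The 2 wild-type libraries are Ctrl_178 and Ctrl_182. The driver and the extent of the deletion, and whether each library came from a separate mouse, are not stated in the sources at hand. The p-values therefore rest only on the spread between these libraries, for each gene moderated toward that of genes at a similar level. All levels are FPKM as deposited, fragments scaled to transcript length and to the number of mapped fragments, and can be set side by side between genes as values per length.

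Nucleosomes wrap DNA around an octamer of the core histones H2A, H2B, H3 and H4, and the linker histone H1 binds where DNA enters and leaves. Replication-dependent histone genes lie in clusters, have no introns in their classic form and are transcribed mainly in S phase. Their classic mRNAs end not in a poly(A) tail but just after a short stem-loop, which is bound by the stem-loop binding protein SLBP. Replacement histones such as H3.3, H2A.Z and macroH2A are made through the whole cell cycle from ordinary polyadenylated mRNAs and are the variants placed in chromatin without replication. Per the labels' protocols these libraries were selected for poly(A) RNA and keep no strand. They therefore hold chiefly the histone transcripts that carry a tail, and a low level here does not measure how much stem-loop mRNA a cell holds.

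By GENCODE M21 on GRCm38, the Hist1 cluster on chromosome 13 holds 54 of the 68 genes within 2.22 Mb (21715763 to 23934851). The Hist2 cluster on chromosome 3 holds 10 (96219865 to 96270132), the Hist3 cluster on chromosome 11 holds 3 (58948920 to 58956830), and Hist4h4 lies alone on chromosome 6. By class, 6 encode H1, 18 H2A, 19 H2B, 12 H3 and 13 H4. The Hist3 genes lie 10.6 Mb from Trp53 on the same chromosome. As a check of the labels, Trp53 itself stood at 4.41 and 2.45 FPKM in the ECp53KO libraries and at 52.1 and 28.8 FPKM in Ctrl, a log2 fold change of -3.20 ± 0.36 (SE, limma adjusted p = 0.146).

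The stem-loop is shown first because it is the element that sets these mRNAs apart. It was found in the longest GENCODE M21 transcript of 45 of the 68 clustered genes, against 0.148% of the 58797 protein-coding transcripts of that annotation. Some annotated transcripts are short and may end before it, and other transcripts of a gene were not searched. Its absence from the rest can therefore reflect the annotation or the choice of transcript. The windows below give the 16 bases of the stem-loop in capitals, with 7 bases on either side, 5′ to 3′ on the transcript strand. They are the stem-loops of the most abundant members that hold one, of H2afx, a replacement histone that also carries it, and of Hist1h2ab, which was listed at 0 in every library.
Hist1h1c: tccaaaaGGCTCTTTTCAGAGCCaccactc
Hist3h2a: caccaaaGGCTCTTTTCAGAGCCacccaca
Hist3h2ba: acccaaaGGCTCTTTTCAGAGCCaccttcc
Hist1h4i: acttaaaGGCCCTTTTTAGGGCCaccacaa
Hist1h4h: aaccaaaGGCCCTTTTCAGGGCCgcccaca
Hist1h2ab: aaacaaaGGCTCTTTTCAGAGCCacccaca
H2afx: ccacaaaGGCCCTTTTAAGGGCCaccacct

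The clustered genes held 8 distinct stem-loop sequences. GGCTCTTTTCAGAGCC, the form in Hist1h1c and Hist3h2a, was present in 25 genes, and 0 of them encode H4. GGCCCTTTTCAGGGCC, the form in Hist1h4h, was present in 7 genes, and all 7 encode H4. The stem-loop of Hist1h2ab is the same as that of Hist1h1c, so these letters do not separate a gene at 0 from a gene far above 0. The annotated sequence that follows differs in length. The annotation continues for 840 nucleotides after the stem-loop in Hist1h1c and 1643 in Hist3h2a, and for 11 in Hist1h2ab. Of the 23 clustered transcripts annotated for more than 100 nucleotides past the stem-loop, some close with a polyadenylation signal, AATAAA or ATTAAA, which directs cleavage and addition of a poly(A) tail, and others do not. The signal is in capitals below, near the transcript end of 4 members.
Hist1h1c: atgcttctAATAAAaagcgttt
Hist3h2a: atatgcccAATAAAataagagt
Hist2h2be: ttattattAATAAAgttaccga
Hist1h4i: ctgtttacATTAAAagtattct

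Most clustered histone genes were at or near 0. Of the 68, 23 were listed at 0 in all 4 libraries, 34 were above 0 in 1 to 3 libraries and 11 in all 4. To enter the test a gene had to average at least 1 FPKM, which 10 genes did, of which 1 encodes H1, 1 H2A, 4 H2B, 0 H3 and 4 H4. The highest mean below that level was 0.915 FPKM and the highest single value there was 2.27 FPKM, both of Hist3h2bb-ps, a gene of the Hist3 cluster whose symbol marks a pseudogene. Clustered genes above 0 numbered 34 (ECp53KO_170), 19 (ECp53KO_172), 23 (Ctrl_178) and 30 (Ctrl_182). Estimated depth was 11500000, 9800000, 11000000 and 22700000 fragments in the same order, and at these depths 1 fragment on a transcript of 500 nucleotides stands for 0.173, 0.204, 0.182 and 0.0881 FPKM. A gene listed at 0 had no fragment assigned to it, which does not show that its mRNA is absent. Outside Ctrl_182, a value near 0.2 FPKM on so short a transcript rests on about 1 fragment. A value above 0 can also stand for less than 1 fragment, as for Hist2h2aa1, counted in Ctrl_182 at 6e-07 FPKM.

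Of the 17 clustered genes with a polyadenylation signal in the last 50 nucleotides, 7 averaged at least 1 FPKM and 3 were at 0 throughout, with a median level of 0.849 FPKM. Of the 51 without one, 3 averaged at least 1 FPKM and 20 were at 0 throughout, with a median of 0.0729 FPKM. Such a signal closes 50.2% of all protein-coding transcripts. The 3 exceptions among the measured genes were Hist1h2bc, Hist1h4k and Hist1h2bg. Only the longest transcript of each gene was searched, so another transcript of such a gene may hold a signal. Read the other way, 7 of the 10 genes at 1 FPKM or more had the terminal signal, against 10 of the 58 others. The stem-loop itself was present in 7 of those 10 and in 38 of those 58, and the annotation ran on for more than 100 nucleotides past it in 6 and 17. These are counts of annotation beside levels, given as a description, and FPKM depend on the transcript length the authors' own annotation used, which the labels do not name. The RefSeq gene table gives Hist1h1c a span of 725 nucleotides and Hist3h2a 508, against 1560 and 2146 for the GENCODE transcripts. For other genes the RefSeq span is the longer, with 409 against 312 nucleotides for Hist1h4k and 536 against 393 for Hist1h2ak. Such GENCODE transcripts may end before a signal or stem-loop, so the lack of either can be a lack of annotation.

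**Figure D1:**
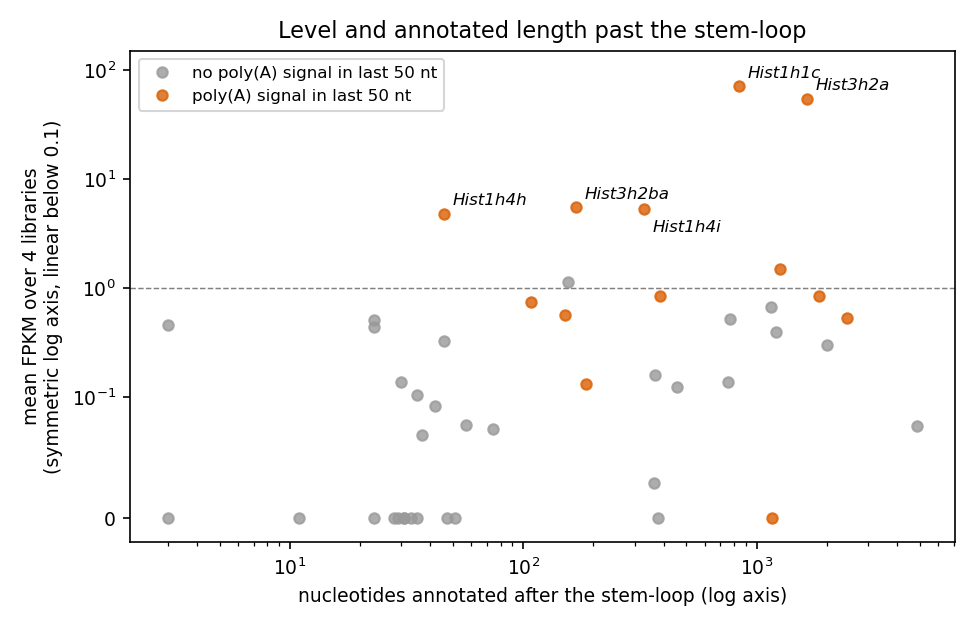
Each point is 1 of the 45 clustered histone genes whose transcript holds the stem-loop, placed by the nucleotides annotated after it (log axis) and by its mean FPKM over the 4 libraries (symmetric log axis, linear below 0.1). Orange points have AATAAA or ATTAAA in the last 50 nucleotides, the dashed line marks 1 FPKM, and 6 of the 7 points above the line are orange.

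Reads of 51 bases cannot always be assigned to a single gene where coding sequences are nearly identical. The median share of 51-base stretches also found in transcripts of other genes was 29.2% in the 10 measured genes and 53.6% in the other 58. More than 50% was shared in 1 of the 10, Hist1h4k with 71.0%, and in 31 of the 58, so the levels of these genes are uncertain. Hist2h2be shared none of its stretches. Hist1h1c shared 8.41%, mostly with the linker histone gene Hist1h1d, and Hist1h2bc shared 29.8%, mostly with Hist1h2bg. Hist3h2a shared 31.4%, mostly with Trim17, which was at 0 in both ECp53KO libraries and at 0.230 FPKM (Ctrl_178) and 0.0839 FPKM (Ctrl_182).

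Hist1h2bc, Hist1h1c and Hist3h2a together carried 86.0%, 84.8%, 87.0% and 82.9% of all clustered histone FPKM in ECp53KO_170, ECp53KO_172, Ctrl_178 and Ctrl_182. Summed over the 68 genes, the level was 256 and 223 FPKM in ECp53KO_170 and ECp53KO_172 and 247 and 213 FPKM in Ctrl_178 and Ctrl_182. The groups interleaved, with means of 239.9 ± 23.1 and 229.8 ± 23.6 FPKM (SD, n = 2 each) and a ratio of 1.04. An exact permutation test was not used because 2 libraries against 2 leave too few regroupings to reach the threshold. Without Hist1h2bc the ratio of sums was 0.986, and with every library rescaled to the same total it was 0.961.

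By class, H2B had the highest sum, with 98.1 and 91.9 FPKM in the ECp53KO pair and 93.6 and 71.9 in the Ctrl pair. H1 followed with 76.6 and 66.3 against 73.9 and 70.7 FPKM, and H2A with 63.7 and 47.1 against 63.5 and 49.5 FPKM. H4 summed to 16.9 and 17.8 against 15.0 and 20.5 FPKM, with no replacement form of H4 beside it. All 5 class sums overlapped between the groups. Clustered H3 was nearly empty at 0.976 and 0.329 against 0.638 and 0.550 FPKM over 12 genes, while the replacement pair H3f3a and H3f3b summed to 887 and 635 against 680 and 644 FPKM. The clustered H3 sums rest on few fragments, and in ECp53KO_172 on the single gene Hist1h3h, so no ratio is given. Over all classes the clustered genes amounted to 20.3% to 24.6% of the summed replacement histones.

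**Figure D2:**
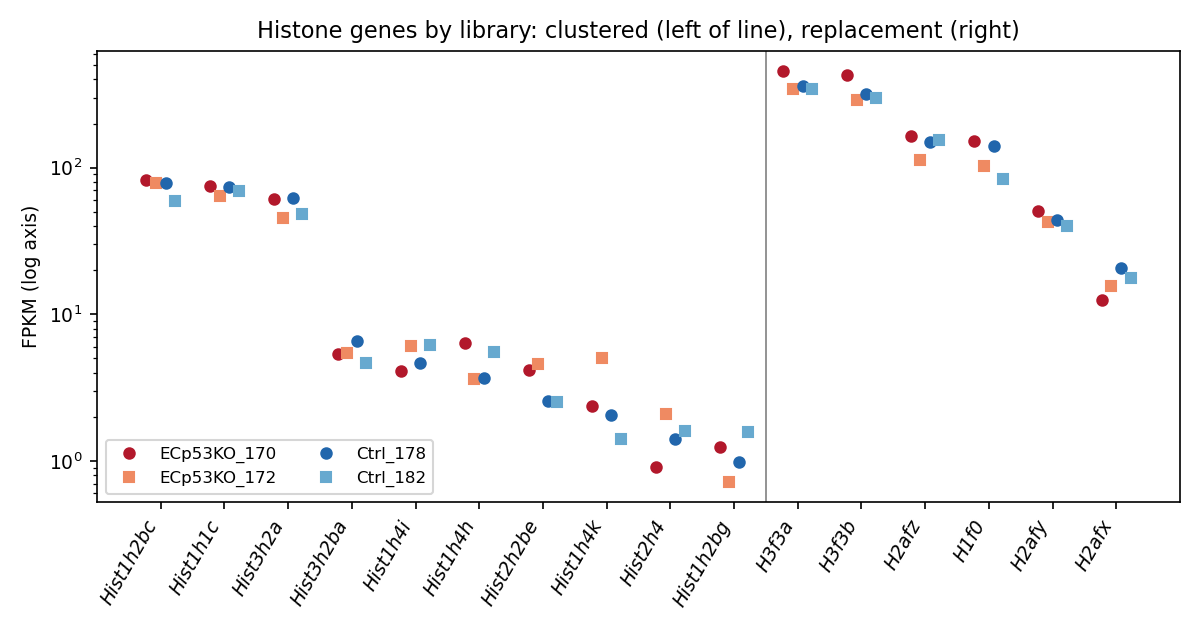
FPKM on a log axis of the 10 clustered histone genes averaging 1 FPKM or more (left of the line) and of the 6 replacement histones (right), with 1 point per library, circles and squares in red tones for ECp53KO and in blue tones for Ctrl. Hist1h2bc, Hist1h1c and Hist3h2a stand near the level of H2afy, and the other 7 clustered genes lie below H2afx.

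Between the groups, 0 of the 10 tested clustered genes passed the test (limma on log2(FPKM + 1), Benjamini-Hochberg adjusted p under 0.05 over 11332 genes), where 0.115% of all tested genes passed. Trp53 itself, at a log2 fold change of -3.20, did not pass it either (limma adjusted p = 0.146). A gene that did not pass is therefore not shown to be unchanged. At an unadjusted p under 0.05, 1 of the 10 was higher in ECp53KO and 0 were lower, against 1.97% and 2.82% of all genes. In 3 of the 10 both ECp53KO libraries lay above both Ctrl libraries and in 0 below, against 19.1% and 16.8% of all genes. The median log2 fold change of the 10 was -0.03, with a range of -0.20 to 0.73, and that of all genes was 0.01. Without any one library in turn the median of the 10 was 0.026 to 0.12, with the opposite sign. Fold changes are ECp53KO minus Ctrl on the log2(FPKM + 1) scale, which understates the change of low genes.

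Hist1h2bc, a gene for the core histone H2B (chromosome 13, 23684199 to 23692908), was the most abundant clustered member. It stood at 83.1 FPKM (ECp53KO_170) and 79.3 FPKM (ECp53KO_172), against 78.5 FPKM (Ctrl_178) and 59.4 FPKM (Ctrl_182). The groups did not overlap, but Ctrl_178 lay within 1 FPKM of ECp53KO_172 and only Ctrl_182 was clearly lower. The log2 fold change was 0.25 ± 0.19 (SE), with a 95% interval of -0.24 to 0.73 and a limma adjusted p of 0.864. Its longest GENCODE transcript is 1156 nucleotides long and holds no stem-loop and no terminal polyadenylation signal. Only that transcript was searched, and the gene extends over far more bases, so another transcript of it may hold either.

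Hist1h1c encodes the linker histone H1.2 (chromosome 13, 23738808 to 23740367). Its levels were 75.6 and 64.6 FPKM in the ECp53KO pair and 73.7 and 69.0 in the Ctrl pair, so the Ctrl libraries lay between the ECp53KO libraries. The log2 fold change was -0.03 ± 0.16 (SE), and the 95% interval of -0.44 to 0.39 was the narrowest of the 10 tested clustered genes (limma adjusted p = 0.979).

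Hist3h2a, an H2A gene (chromosome 11, 58954685 to 58956830), stood at 61.6 and 45.5 FPKM in the ECp53KO pair and at 62.2 and 48.2 in the Ctrl pair. Each group held 1 high and 1 low library, and the log2 fold change was -0.05 ± 0.22 (SE, 95% interval -0.62 to 0.53). Its neighbour Hist3h2ba, an H2B gene, stood at 5.36 and 5.44 FPKM in the ECp53KO pair and at 6.57 and 4.64 in the Ctrl pair, with the Ctrl values on either side (log2 fold change -0.03, 95% interval -0.57 to 0.51).

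Hist2h2be, an H2B gene with a transcript of 2620 nucleotides (chromosome 3, 96221119 to 96223738), had the smallest p of the 10 tested clustered genes. It stood at 4.18 FPKM (ECp53KO_170) and 4.61 FPKM (ECp53KO_172), against 2.56 FPKM (Ctrl_178) and 2.51 FPKM (Ctrl_182). The libraries within each group were close and the groups did not overlap, with means of 4.39 ± 0.304 and 2.54 ± 0.0355 FPKM (SD, n = 2 each). The log2 fold change was 0.61 ± 0.19 (SE), with a 95% interval of 0.13 to 1.09 and a limma p of 0.0220 unadjusted and 0.864 adjusted, so it did not pass. The values correspond to about 126 and 119 fragments in ECp53KO and 74 and 149 in Ctrl, the last from the deepest library.

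Among the H4 genes, Hist1h4k stood at 2.38 and 5.02 FPKM in the ECp53KO pair and at 2.07 and 1.41 in the Ctrl pair. Its groups did not overlap, ECp53KO_172 was the highest library, and the log2 fold change was 0.73 ± 0.34 (SE, 95% interval -0.14 to 1.60, limma adjusted p = 0.864). These values rest on about 7 to 15 fragments of a transcript of 312 nucleotides, 71.0% of whose 51-base stretches other genes share. Hist1h4i stood at 4.09 and 6.11 FPKM in the ECp53KO pair and at 4.69 and 6.22 in the Ctrl pair, with interleaved libraries and a log2 fold change of -0.09 ± 0.25 (SE). Hist1h4h ran the other way within the groups, with 6.34 and 3.65 FPKM in the ECp53KO pair and 3.67 and 5.54 in the Ctrl pair (log2 fold change 0.08 ± 0.31, SE).

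The last measured genes were Hist2h4, an H4 gene, at 0.904 and 2.08 FPKM in the ECp53KO pair and at 1.41 and 1.60 in the Ctrl pair, and Hist1h2bg, an H2B gene, at 1.25 and 0.720 against 0.979 and 1.59 FPKM. Both overlapped between the groups, and their 95% intervals, -0.84 to 0.74 and -0.94 to 0.54, were wide.

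**Figure D3:**
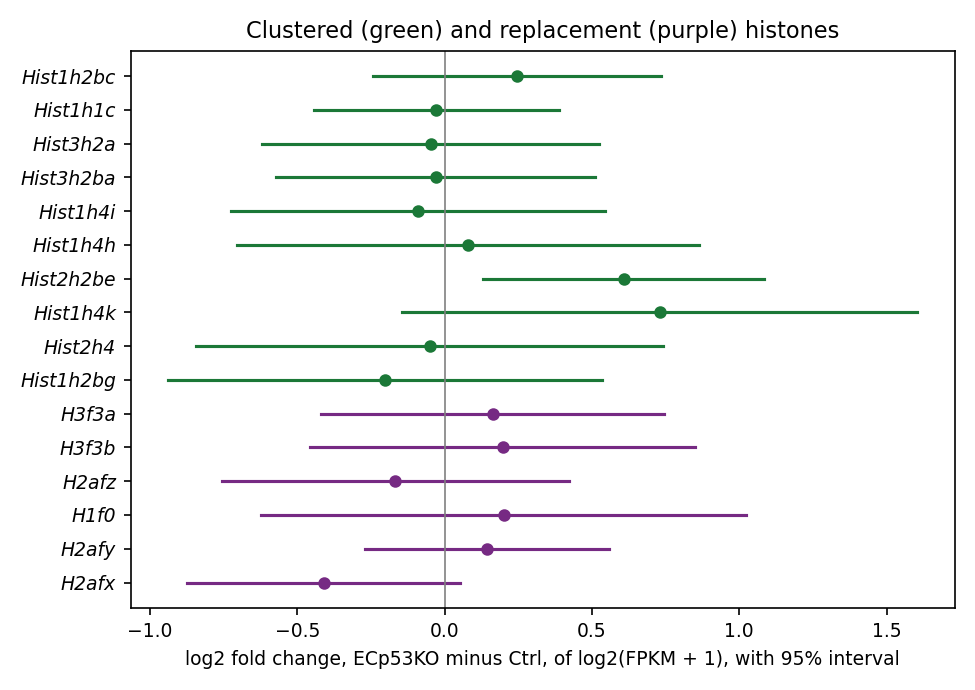
Log2 fold change (ECp53KO minus Ctrl, of log2(FPKM + 1)) of the 10 tested clustered genes in green and the 6 replacement histones in purple; points are estimates and lines are 95% intervals from limma. The interval of Hist2h2be, 0.13 to 1.09, is the one that lies wholly on one side of 0 before adjustment, and those of the other 15 genes cross it.

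Genes below 1 FPKM were fitted only in an alternative without the filter, over all 24346 genes, of which 0.152% passed. There 1 of the 68 clustered genes passed, Hist1h2bb, an H2B gene with a stem-loop followed by 23 nucleotides. It was listed at 0 in both ECp53KO libraries, against 0.890 FPKM (Ctrl_178) and 0.866 FPKM (Ctrl_182; limma adjusted p = 0.0152). Those levels correspond to about 5 and 10 fragments, and a pair of zeros has no spread of its own. The SE of 0.01 therefore rests on 2 close Ctrl values and on the variance limma borrows from genes of like level, here without the filter. Hist1h4j, an H4 gene, was likewise at 0 in both ECp53KO libraries and at 1.53 and 1.87 FPKM in Ctrl (about 13 and 33 fragments), and it did not pass (limma adjusted p = 0.265). Hist1h1d, a linker histone gene, was at 0.142 and 0.163 FPKM in ECp53KO and 0 in both Ctrl libraries. Hist1h4j and Hist1h1d were singled out after their values were seen.

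Replacement histones were abundant, and 0 of the 6 passed the test, where 0.115% of all tested genes passed. At an unadjusted limma p under 0.05, 0 were higher and 0 lower (1.97% and 2.82% of all genes). The log2 fold changes had a median of 0.15. In 1 gene the ECp53KO libraries were lower without overlap and in 0 higher, against 16.8% and 19.1% of all genes. H3f3a, which encodes H3.3, was the most abundant with 455 and 343 FPKM in the ECp53KO pair and 362 and 344 in the Ctrl pair. H3f3b, the second H3.3 gene, followed the same library order with 432 and 291 against 318 and 301 FPKM. In both genes ECp53KO_170 was the highest library and ECp53KO_172 the lowest, and the log2 fold changes were 0.16 ± 0.23 and 0.20 ± 0.26 (SE).

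H2afz, which encodes H2A.Z, a variant found around transcription start sites, stood at 164 and 112 FPKM in the ECp53KO pair and at 150 and 154 in the Ctrl pair. The ECp53KO libraries lay on either side of the Ctrl libraries, with a log2 fold change of -0.17 ± 0.23 (SE, 95% interval -0.76 to 0.42). H1f0, which encodes H1.0, the linker histone of cells that have stopped dividing, stood at 152 and 104 against 141 and 84.2 FPKM. H2afy, which encodes macroH2A1, stood at 50.5 and 42.8 against 43.8 and 40.2 FPKM. Both overlapped between the groups.

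H2afx encodes H2A.X, the variant phosphorylated at DNA breaks, and its gene gives both a stem-loop mRNA and a polyadenylated one. It stood at 12.6 FPKM (ECp53KO_170) and 15.7 FPKM (ECp53KO_172), against 20.6 FPKM (Ctrl_178) and 17.7 FPKM (Ctrl_182). Both ECp53KO libraries lay below both Ctrl libraries, with means of 14.2 ± 2.19 and 19.1 ± 2.05 FPKM (SD, n = 2 each). The log2 fold change was -0.41 ± 0.18 (SE), with a 95% interval of -0.87 to 0.05 and a limma p of 0.0718 unadjusted and 0.864 adjusted. In its transcript 822 nucleotides follow the stem-loop printed above, more than in 4 of the 7 measured clustered genes that hold one.

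Many H2A and H2B genes stand head to head, each pair sharing one short promoter region. With a gap of at most 500 bp between divergent starts, 13 such pairs were found, and all 13 join an H2A to an H2B gene. In 4 pairs a partner averaged at least 1 FPKM, and in 0 pairs did both. Hist1h2bc averaged 75.1 FPKM beside 0.298 FPKM of Hist1h2ac, over a gap of 250 bp. Hist3h2a averaged 54.4 FPKM beside 0.915 FPKM of Hist3h2bb-ps. The gap between Hist2h2be at 3.47 FPKM and Hist2h2ac at 0.0771 FPKM was 238 bp, and that between Hist1h2bg at 1.13 FPKM and Hist1h2ae at 0.570 FPKM was 175 bp. In the last pair the order was not the same in every library, since Hist1h2ae stood at 1.59 FPKM and Hist1h2bg at 0.720 FPKM in ECp53KO_172.

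**Figure D4:**
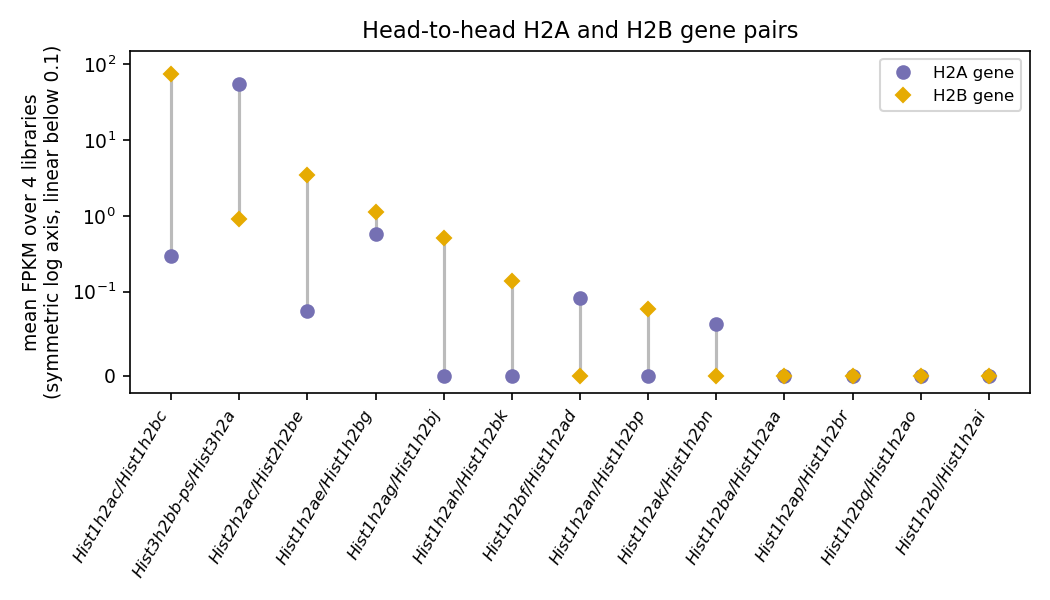
Mean FPKM over the 4 libraries (symmetric log axis, linear below 0.1) of the H2A gene (circle) and the H2B gene (diamond) of each of 13 head-to-head pairs, joined by a line. In the 2 pairs at the left the partners differ most, 75.1 against 0.298 and 54.4 against 0.915 FPKM, and 4 pairs at the right are at 0 in both genes.

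The region between Hist1h2ac and Hist1h2bc is printed here because one of its sides carries the most abundant clustered transcript. Beside it are the 250 bases before Hist1h1c and before Hist3h2a. The sequences are from RefSeq on GRCm38.p6, 5′ to 3′ on the strand given, and capitals mark CCAAT (or ATTGG, its reverse complement), the box bound by NF-Y, and TATAAA (or TTTATA), the TATA box. The first is chr13:23683960-23684198 on the minus strand, toward Hist1h2ac, the second chr13:23738557-23738806 on the plus strand and the third chr11:58954435-58954684 on the plus strand.
Hist1h2ac-Hist1h2bc: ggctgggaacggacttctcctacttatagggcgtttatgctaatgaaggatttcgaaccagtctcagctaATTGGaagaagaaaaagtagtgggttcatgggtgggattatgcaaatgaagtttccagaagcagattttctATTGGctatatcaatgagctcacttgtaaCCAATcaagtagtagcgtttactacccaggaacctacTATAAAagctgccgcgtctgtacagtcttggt
Hist1h1c: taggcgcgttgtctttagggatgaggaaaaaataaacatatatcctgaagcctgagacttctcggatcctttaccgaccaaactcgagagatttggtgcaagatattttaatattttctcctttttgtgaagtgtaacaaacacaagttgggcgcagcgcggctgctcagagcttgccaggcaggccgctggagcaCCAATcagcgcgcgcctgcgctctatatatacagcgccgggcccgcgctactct
Hist3h2a: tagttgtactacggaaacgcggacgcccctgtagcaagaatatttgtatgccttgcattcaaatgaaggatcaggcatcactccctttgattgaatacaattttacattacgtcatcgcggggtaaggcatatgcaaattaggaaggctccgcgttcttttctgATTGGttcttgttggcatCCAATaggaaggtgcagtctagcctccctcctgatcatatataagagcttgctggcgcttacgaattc

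The shared region held CCAAT 3 times and TATAAA 1 time, Hist1h1c held CCAAT 1 time and Hist3h2a 2 times, and TATAAA was in neither of the last. Only these exact letters were searched, so other forms of the TATA box were not counted. Searched on both strands over the 250 bases before each start, CCAAT was present in 82.3% of 62 clustered histone windows, against 33.8% of 32851 windows of all genes. TATAAA was present in 46.8% against 12.4%. In the 7 windows of clustered genes averaging 1 FPKM or more, each was present in 57.1%, that is in 4 windows. There CCAAT was absent only before Hist1h4h, Hist1h4i and Hist1h4k, all of them H4 genes. Most H4 windows lacked it, also those of genes under 1 FPKM. In the 5 replacement windows CCAAT was present in 60% and TATAAA in 20%. The 62 clustered windows belong to 61 genes, and those of head-to-head partners largely cover the same bases. A p53 response element, searched by name as a pair of half-sites with at most 13 bases between them, was present in 0 of the 62 clustered windows and in 0 of 5 replacement windows, against 0.0639% of all windows. With matches this rare over all windows, 0 was likely in any set so small, so it carries no information about these promoters. A match is a description of these letters, and the absence of one says nothing about binding outside the window.

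Genes that make, process and carry histone mRNA and protein gave 0 calls by limma in any of the lists tested (0.115% of all genes). Of 22 tested genes of histone gene transcription and 3′ end formation, 1 was higher and 1 lower at an unadjusted p under 0.05 (1.97% and 2.82% of all genes), 8 were higher and 1 lower without overlap (19.1% and 16.8% of all genes), and the median log2 fold change was 0.11. Slbp, whose product binds the printed stem-loop, stood at 26.8 and 22.5 FPKM in the ECp53KO pair and at 26.2 and 28.0 in the Ctrl pair (log2 fold change -0.14 ± 0.16, SE, 95% interval -0.55 to 0.27). Npat, the histone-specific coactivator of the clusters, stood at 4.56 and 3.67 against 3.39 and 3.58 FPKM. Nfyb, a subunit of the CCAAT-binding factor NF-Y, stood at 17.3 and 18.0 against 12.1 and 12.4 FPKM (log2 fold change 0.49 ± 0.15, SE, limma adjusted p = 0.864). E2f1, a transcription factor of the G1 to S transition, stood at 0.940 and 1.36 against 4.29 and 2.30 FPKM (-0.96 ± 0.31, limma adjusted p = 0.864).

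Of 28 tested histone chaperone and deposition genes, 0 were higher and 2 lower at an unadjusted limma p under 0.05 (1.97% and 2.82% of all genes), and the median log2 fold change was -0.01. Without overlap 6 were higher and 5 lower, shares near the 19.1% and 16.8% of all genes. Both of the 2 serve the deposition of newly made H3 and H4 behind the replication fork. Asf1b, a chaperone of the H3 and H4 dimer, stood at 0.467 and 0.737 FPKM in the ECp53KO pair and at 2.31 and 1.98 in the Ctrl pair (log2 fold change -0.98 ± 0.25, SE). It averaged under 1 FPKM in ECp53KO and entered the test through its Ctrl values, so its place in the count of 2 supports nothing. Chaf1a, the large subunit of chromatin assembly factor CAF-1, stood at 1.39 and 1.17 against 3.06 and 2.55 FPKM (-0.74 ± 0.22, SE). Neither passed after adjustment (limma adjusted p = 0.864 for both).

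Of 23 tested genes of S phase and the replication fork, 0 were higher and 3 lower at an unadjusted limma p under 0.05 (1.97% and 2.82% of all genes), 0 higher and 6 lower without overlap (19.1% and 16.8%), and the median log2 fold change was -0.13. Those 3 were Tk1 (thymidine kinase) at 1.29 and 1.90 against 6.83 and 3.68 FPKM, the kinase gene Cdk2 at 14.7 and 16.2 against 23.1 and 21.8 FPKM, and Rrm2 (ribonucleotide reductase) at 1.24 and 1.42 against 5.88 and 2.36 FPKM. Pcna, the replication clamp, stood at 119 and 93.8 against 107 and 102 FPKM and overlapped.

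Of 9 tested proliferation markers, genes of cycling cells, 8 were lower at an unadjusted limma p under 0.05, against 2.82% of all genes, and 8 were lower without overlap, against 16.8%. By limma 0 passed after adjustment (0.115% of all genes), and the median log2 fold change was -1.12. Their summed level over 10 genes was 17.1 and 16.7 FPKM in the ECp53KO pair and 59.8 and 38.2 in the Ctrl pair. The ratio was 0.345, where that of the clustered histones was 1.04. In every library 82.9% or more of the clustered sum came from Hist1h2bc, Hist1h1c and Hist3h2a. In poly(A)-selected RNA that sum does not measure the stem-loop mRNA made in S phase. The 58 clustered genes under 1 FPKM summed to 11.4 and 6.44 FPKM in ECp53KO and 10.2 and 12.98 in Ctrl. Those sums overlapped, with a ratio of 0.77, and most of those genes were at or near 0. Ccnb2 (cyclin B2) stood at 2.50 and 3.85 against 9.45 and 7.62 FPKM, and Ccna2 (cyclin A2) at 2.53 and 2.94 against 8.45 and 5.98 FPKM. Top2a (topoisomerase II) stood at 2.01 and 1.49 against 6.51 and 4.37 FPKM, Cdk1 at 1.87 and 1.73 against 6.03 and 3.74 FPKM, and Plk1 at 0.855 and 1.22 against 4.11 and 2.44 FPKM. In bulk RNA, fewer cells of a kind and less RNA per cell cannot be told apart. The difference between the lists was not tested.

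**Figure D5:**
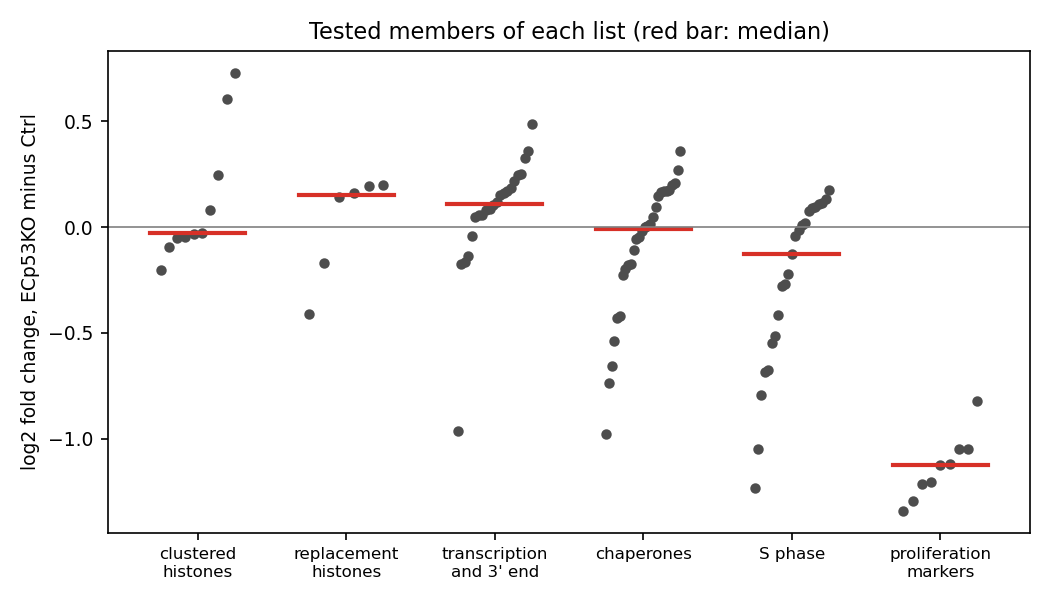
Log2 fold change (ECp53KO minus Ctrl, of log2(FPKM + 1)) of each tested member of 6 lists, sorted within the list, with the list's median as a red bar. The median was -0.03 for clustered histones and 0.15 for replacement histones, and -1.12 for the proliferation markers, whose values ran from -1.34 to -0.82.

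Other variant histones gave 0 calls by limma among 5 tested (0.115% of all genes) and a median log2 fold change of -0.22. At an unadjusted limma p under 0.05, 0 were higher and 0 lower (1.97% and 2.82% of all genes). Of the 5, 1 was lower and 0 higher without overlap (16.8% and 19.1% of all genes). Cenpa, the H3 variant of centromeres, stood at 9.28 and 8.003 FPKM in the ECp53KO pair and at 15.2 and 9.92 in the Ctrl pair, without overlap (log2 fold change -0.47 ± 0.24, SE, limma adjusted p = 0.864). H2afv, a second H2A.Z gene, stood at 52.2 and 33.6 against 32.4 and 35.1 FPKM and overlapped.

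The 8 endothelial markers summed to 5360 and 4816 FPKM in the ECp53KO pair and to 4715 and 4494 in the Ctrl pair, with 4 members higher and 1 lower without overlap (19.1% and 16.8% of all genes). Cardiomyocyte markers summed to 381 and 212 FPKM in the ECp53KO pair and 208 and 195 in the Ctrl pair, and pericyte and smooth muscle markers to 161.4 ± 23.2 against 104.3 ± 13.1 FPKM (mean and SD, n = 2 each), with 4 of 8 tested members higher without overlap (19.1% of all genes). Erythroid markers summed to 413 and 89.3 against 61.0 and 33.7 FPKM. All 5 tested members were higher without overlap (19.1% of all genes), and Klf1, not tested, was at 0. Of the 5, Hbb-bs and Hba-a2 averaged 0.0099 and 0.262 FPKM in Ctrl and entered the test through ECp53KO. Leukocyte markers summed to 4.99 and 9.58 against 10.5 and 6.76 FPKM, with Cd3e at 0, platelet markers to 13.7 and 2.64 against 8.06 and 4.83 FPKM, and fibroblast markers to 58.5 and 46.7 against 45.1 and 46.7 FPKM. Without overlap, 3 of 5 tested fibroblast members were higher and 1 lower, and 2 of 9 cardiomyocyte members were higher and 0 lower. Of 3 tested leukocyte members 0 were higher and 1 lower, and of 3 platelet members 1 was higher and 0 lower (19.1% and 16.8% of all genes). ECp53KO_170 was the highest library for H3f3a, H3f3b, H2afz, H1f0 and H2afy. It was also the highest for every one of these marker sums except the leukocyte sum, and for the FPKM summed over all genes, 732051 against 603783 to 617026 in the others. The part of other cells and of library scale in the histone levels was not tested.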

How the data were processed

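Poly(A)-selected, non-stranded libraries were read as pairs of 51 bases, per the labels' protocols. TopHat2 2.1.0, Cufflinks 2.2.1, Trimmomatic 0.36 and the build mm10 are named in the submitters' processing notes, and the gene annotation was not found there. The authors deposited FPKM for 24346 gene symbols in 4 libraries, summing to 603783 to 732051, with no counts. Depth was estimated from the value that 1 fragment takes in 1037 genes of low FPKM, and fragments per gene follow from it and the GENCODE M21 transcript length.

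Values were tested as log2(FPKM + 1) in the 11332 genes that averaged 1 FPKM or more. The two-sided test was limma-trend (limma 3.58.1, R 4.3.3) with no covariate, and Benjamini-Hochberg adjustment to a threshold of 0.05. The script was tested on simulated data with planted changes larger than those of the tested histone genes, so that run does not show whether changes of their size would be found. Alternatives were a pseudocount of 0.1, no filter, rescaling every library to the same sum (TPM), leaving out small RNA loci, robust shrinkage and leaving out each library.

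The histone genes, the lists and the tests were chosen with earlier results of these data known. Values in every library are given for clustered genes that averaged 5 FPKM or more, for the 6 replacement histones, and for up to 4 further clustered genes per direction by smallest p. They are also given for members of other lists with an unadjusted p under 0.05 and no overlap (at most 5 a direction and list) and for Trp53. Slbp, Npat, Pcna, Cenpa, H2afv, Trim17, Hist1h4h, Hist1h2bb and the head-to-head partners were named beside these for their role or after their values were seen.

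Transcripts are the longest in GENCODE M21, which matched all 74 genes. Promoters are RefSeq's on GRCm38.p6, matched through older symbols, and Hist1h2bc, Hist2h2be, Hist2h4 and H2afx had no entry.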

Additional observations from a re-analysis of the deposited data

How the results depend on the processing

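No paired analysis was run because the labels give every library its own number and name no pairs, so any pairing is unknown. No clustered or replacement histone was called under the pseudocount of 0.1, TPM, without small RNA loci, with robust shrinkage or without any one library, and with no filter 1 of 68 clustered genes was. Trp53 passed without small RNA loci (limma adjusted p = 0.0127) and with robust shrinkage (0.0412), at the same log2 fold change of -3.20. TPM, which moved the median of all genes from 0.01 to -0.10, moved the median log2 fold change of the histone mRNA list to 0.016 and of the chaperones to -0.12. It moved the median of clustered histones from -0.03 to -0.13 and that of replacement histones from 0.15 to 0.038, took the summed clustered ratio from 1.04 to 0.961, and turned Hist1h4h to -0.022. The pseudocount of 0.1 moved the proliferation markers to -1.54. Leaving out 1 library at a time gave medians of 0.026 to 0.12 for clustered histones, -0.08 to 0.31 for replacement histones, -0.52 to 0.13 for other variants and -0.50 to 0.043 for S phase, and a summed clustered ratio of 0.972 to 1.13. Log2 fold changes of named genes that changed sign then ran from -0.17 to 0.57 (H1f0), -0.44 to 0.10 (H2afz), -0.040 to 0.37 (H3f3a), -0.086 to 0.48 (H3f3b), -0.14 to 0.083 (Hist1h1c), -0.25 to 0.41 (Hist1h4h), -0.33 to 0.15 (Hist1h4i), -0.40 to 0.30 (Hist2h4), -0.26 to 0.17 (Hist3h2a) and -0.24 to 0.18 (Hist3h2ba). Others kept their sign but moved by more than 1.5 times, with ranges of 0.31 to 1.15 (Hist1h4k), 0.048 to 0.44 (Hist1h2bc), -0.40 to -0.0067 (Hist1h2bg), -0.56 to -0.26 (H2afx), 0.026 to 0.26 (H2afy), -1.30 to -0.62 (E2f1) and -1.56 to -0.53 (Rrm2). The cause was not tested. FPKM keep no counts, and 2 libraries a group limit every interval.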

Other observations

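Variant histones known from the germ line were at or near 0. H1foo, H1fnt, H2afb1, H2afb2, H2afb3 and H2bfm were listed at 0 in all 4 libraries, and Hils1, a spermatid linker histone, at 0.125 FPKM in Ctrl_182 and 0 in the others. Among clustered genes, Hist1h1t, the testis linker histone, stood at 0.528 FPKM in ECp53KO_172 and 0 in the others. Hist1h2ba and Hist1h2aa, the testis pair of H2B and H2A, were at 0 in all 4 libraries.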
